A study of Mus musculus with 6 samples.

Results

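The genes described here are the 9 named members of the MHC class II antigen presentation pathway, H2-Aa, H2-Ab1, H2-Eb1, H2-DMa, H2-DMb1, H2-Oa, H2-Ob, Cd74 and Ciita, among 19057 genes named on the array. All probes annotated with these symbols were read on all 6 arrays, which gave 16 of the 45281 probes on the array. Of these, 12 probes of 7 genes were detected on at least 3 arrays and were tested. H2-Aa and Ciita were not tested. The tested members were detected on 2 or 3 arrays of each genotype, so none entered the test through a single genotype.

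RNA came from lineage-negative, Kit-positive (LK) cells of mouse bone marrow, the fraction that holds blood stem and progenitor cells, isolated by flow cytometry. The first group was NHD13 transgenic mice and the second their wild type littermates, both 3 months old, with 3 arrays per genotype and the marrow of 3 mice pooled for each array. NHD13 is the usual name of a NUP98-HOXD13 fusion transgene, a mouse model of myelodysplastic syndrome, known as background to be driven by Vav regulatory elements in blood cells. The labels give no strain, and class II genes differ in sequence between mouse strains. The comparison asks which of these genes the transgene's carriers express at another level.

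MHC class II molecules are pairs of an alpha and a beta chain that carry peptides from endosomes to the cell surface, where CD4 T cells read them. The pair is assembled with the invariant chain CD74, which blocks the groove and guides the complex to endosomes. There the DM protein exchanges the remaining invariant chain fragment for peptide, and the DO protein restrains DM. CIITA, a coactivator that does not itself bind DNA, is recruited to the X and Y boxes in front of these genes by RFX, CREB and NF-Y proteins and switches them on together. Dendritic cells, B cells and macrophages are the main carriers of class II, and their progenitors begin to express it in the marrow.

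Promoter windows, from 250 bases before to 50 after the annotated start, are shown for 3 members. H2-Eb1 and H2-DMb1 are shown because their windows hold an X core followed by a Y box, and H2-Ob because it was the tested member with a positive difference. None of these 3 genes passed the test. The sequences are RefSeq's (GRCm38.p6), 5′ to 3′. Capitals mark the core of the X box, ACNGATG, and the Y box, ATTGG, found on either strand.
H2-Eb1, chr17:34305617-34305916, plus strand: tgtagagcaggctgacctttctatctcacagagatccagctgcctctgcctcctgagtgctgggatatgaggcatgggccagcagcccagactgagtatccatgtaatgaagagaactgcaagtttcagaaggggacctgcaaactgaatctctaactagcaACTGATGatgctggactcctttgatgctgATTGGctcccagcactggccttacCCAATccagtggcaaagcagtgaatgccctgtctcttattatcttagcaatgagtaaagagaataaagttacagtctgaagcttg
H2-DMb1, chr17:34152941-34153240, plus strand: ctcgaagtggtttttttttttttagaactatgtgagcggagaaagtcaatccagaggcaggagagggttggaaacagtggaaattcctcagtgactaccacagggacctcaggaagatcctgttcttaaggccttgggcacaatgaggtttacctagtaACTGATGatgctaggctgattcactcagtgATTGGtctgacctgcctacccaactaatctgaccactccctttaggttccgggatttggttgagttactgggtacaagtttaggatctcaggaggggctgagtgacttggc
H2-Ob, chr17:34238655-34238954, plus strand: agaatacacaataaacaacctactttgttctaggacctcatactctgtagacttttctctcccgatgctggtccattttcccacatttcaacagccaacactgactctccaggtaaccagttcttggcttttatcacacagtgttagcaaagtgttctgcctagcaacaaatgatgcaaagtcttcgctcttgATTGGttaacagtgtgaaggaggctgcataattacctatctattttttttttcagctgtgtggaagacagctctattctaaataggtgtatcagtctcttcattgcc

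RefSeq windows matched 6 of the 9 members, in 7 windows, and H2-Ab1, Cd74 and Ciita did not match. In H2-Eb1 the X core began 88 bases before the start and the Y box followed after a gap of 22 bases. In H2-DMb1 the X core began 91 bases before the start and the gap was 23 bases. An X core followed by a Y box on the same strand within 40 bases was present in these 2 of the 7 windows, against 0.298% of the 32851 windows of this length in the table. The Y box alone was present in 6 of the 7 windows and in 37.4% of all windows, and the X core alone in 4 of the 7 and in 9.85% of all windows. The H2-Ob window held a Y box, 57 bases before the start, and no exact match to ACNGATG. Looser matches to the X box were not searched for, so all these counts are of exact matches. Neither window of H2-DMa held an exact match to the X core either. Both lay inside the annotated span of that gene rather than at its first base. Any bearing of the motifs on the differences was not tested. The letters of the 2 motifs are such that their matches cannot share a base.

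**Figure D1:**
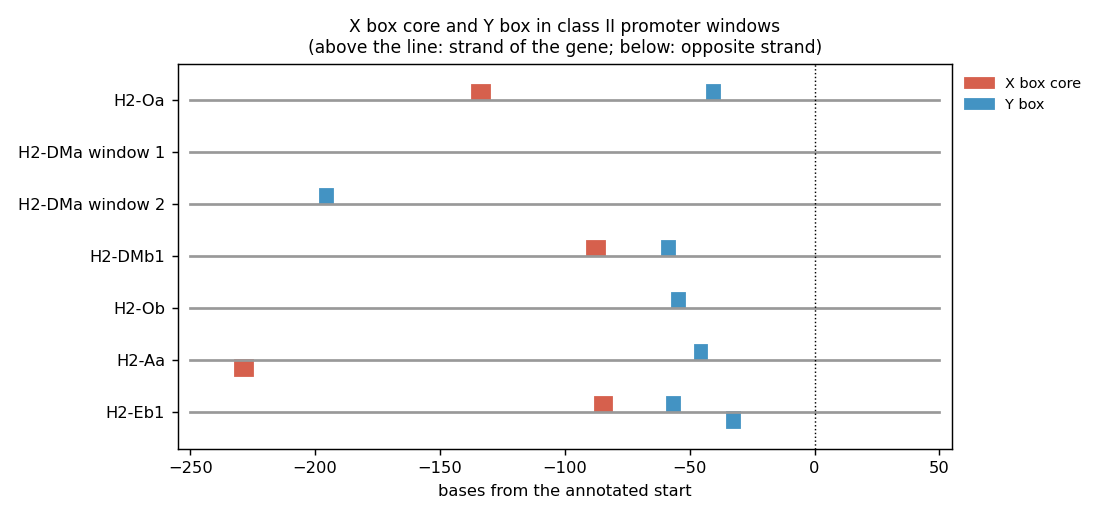
Matches to the X box core (red) and the Y box (blue) along 7 RefSeq promoter windows of 6 class II genes, by distance in bases from the annotated start. Boxes above a line lie on the strand of the gene and boxes below it on the opposite strand. An X core is followed closely by a Y box in H2-DMb1 and H2-Eb1.

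The beta chain gene H2-Ab1 measured lower in NHD13 cells by all 3 of its probes and in every same-numbered pair of arrays, but did not pass in the fit without the numbers. Cd74, H2-DMb1, H2-Eb1 and H2-DMa also had negative differences, H2-Oa lay near 0, and H2-Ob lay 0.47 higher in log2. Fewer cells of a type and less RNA per cell cannot be told apart in these pools, for these and all later values. None of the 7 tested genes passed an adjusted p of 0.05 (limma with Benjamini-Hochberg adjustment), against 0.678% of the 9000 genes tested (61 genes), and none of their 12 probes did, against 0.406% of tested probes. At an unadjusted p under 0.05 there were 3 of the 7, H2-Ab1 and H2-DMb1 lower and H2-Ob higher, against 7.67% of all genes. The median difference of the 7 genes was -0.82 in log2, against 0.03 over all tested genes, and 3 of the 7 lay at or below -1, as did 3.19% of all genes. Dropping NHD13 replicate 2 gave a median of -0.48 and dropping NHD13 replicate 3 one of -1.38. Dropping wild type replicate 2 gave -1.29, and dropping wild type replicate 3 gave -0.47. Both genotypes carry replicate numbers 1 to 3, and a second fit compared the arrays within each number, here called the block. With the block 1 of the 7 passed, H2-Ab1, against 0.8% of all genes (72 genes), and 1 of the 12 probes, against 0.478% of all probes.

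Each array detected 15983 to 16836 probes, and probes had a median bead number of 42 or 43. Pairs of arrays correlated at 0.94 to 0.98 when they shared a genotype and at 0.92 to 0.98 when they did not. Kit, the receptor used for the sort, averaged 12.60 ± 0.26 in NHD13 cells, against 12.82 ± 0.18 in wild type cells (log2 intensity, SD, n = 3). Of the other listed sort markers with a probe, Cd4, Cd8a and Itgam were detected on no array, Ptprc on 1 of 6 and Cd3e on 3 of 6. Whether these probes can detect their genes was not tested, so the counts do not measure the purity of the sort. On the tested class II probes the standard error over beads was 2.58% to 9.74% of the intensity, from 17 to 66 beads.

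**Figure D2:**
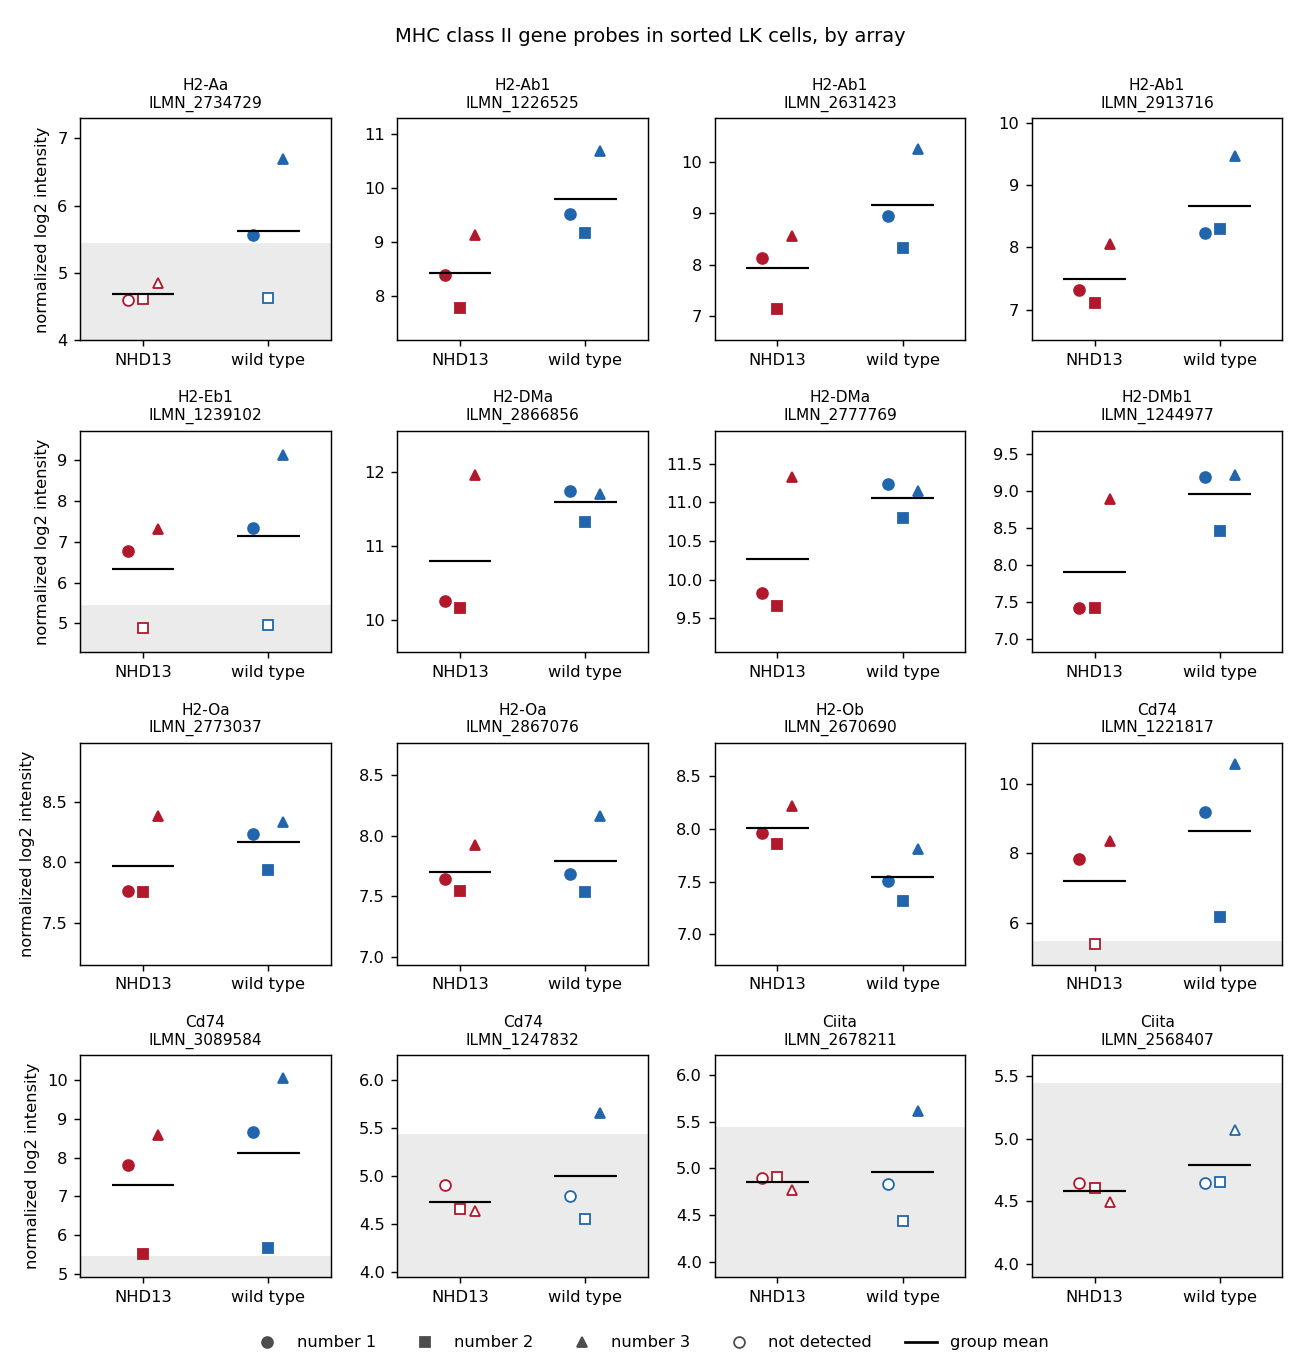
Normalized log2 intensity of the 16 class II probes on each array, with NHD13 (red) left of wild type (blue). Marker shapes give the array number, open markers are arrays on which the probe was not detected, black lines are group means (n = 3), and the grey zone lies under the mean detection floor of the 6 arrays. The 3 NHD13 values lie below the 3 wild type values for 2 of the 3 probes of H2-Ab1 and above them for H2-Ob.

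H2-Ab1 encodes the beta chain of the I-A molecule. Its brightest probe, ILMN_1226525, measured 8.38, 7.79 and 9.12 in NHD13 replicates 1 to 3, against 9.53, 9.16 and 10.68 in wild type replicates 1 to 3. Values are log2 intensities after background correction and quantile normalization, and every other gene's values below follow the same order of replicates. The highest NHD13 value lay just under the lowest wild type value, so the groups did not overlap. Of all tested genes, 5.83% had all NHD13 values under all wild type values. The difference was -1.36 ± 0.48 in log2 (SE, n = 3 against 3), or 2.57-fold lower, with a 95% interval of -2.49 to -0.23. It did not pass in the main fit (adjusted p = 0.54 over genes). Within the arrays numbered 1, 2 and 3 the difference was -1.14, -1.38 and -1.56, a narrower spread than that between arrays of one genotype. With the replicate number as a block its standard error was 0.15 and the gene passed (adjusted p = 0.037 over genes and 0.047 over all probes).

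The other probes of H2-Ab1 gave values of the same size. ILMN_2913716 measured 7.32, 7.11 and 8.05 in NHD13 cells, against 8.23, 8.30 and 9.47 in wild type cells, a difference of -1.17 ± 0.40 (SE; adjusted p = 0.53, and 0.079 with the block). ILMN_2631423 measured 8.13, 7.13 and 8.57 in NHD13 cells, against 8.95, 8.32 and 10.25 in wild type cells, a difference of -1.23 ± 0.56 (SE; adjusted p = 0.66, and 0.12 with the block). The groups overlapped on this probe, where wild type replicate 2 lay under NHD13 replicate 3. They did not overlap on the other 2, against 5.13% of all tested probes with every NHD13 value lower. Between pairs of the 3 probes, values correlated over the 6 arrays at 0.94 to 0.98.

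H2-Aa, the alpha chain that pairs with H2-Ab1, was near background. Its probe measured 4.60, 4.61 and 4.85 in NHD13 cells, against 5.56, 4.63 and 6.70 in wild type cells, and was detected on 0 of 3 NHD13 arrays and on 2 of 3 wild type arrays. All 3 NHD13 values lay near wild type replicate 2, and wild type replicate 3 was the brightest array. The NHD13 mean was 4.68 and the wild type mean 5.63. The groups overlapped, and this probe was not tested. Set against the detection floor, NHD13 cells were at least 1.13-fold lower, but this rests on wild type replicate 3, without which the wild type mean was 5.09, under the floor of 5.45, and no bound remains.

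H2-Eb1, the beta chain of the I-E molecule, varied more between pools than between genotypes. It measured 6.79, 4.89 and 7.33 in NHD13 cells, against 7.35, 4.97 and 9.13 in wild type cells, and the array numbered 2 of each genotype did not detect it. The difference was -0.82 ± 1.09 (SE, adjusted p = 0.82), with a 95% interval of -3.39 to 1.76. Without wild type replicate 3 the difference was 0.17, and without NHD13 replicate 2 it was -0.09. The probes of H2-Ea, its alpha chain partner, and of H2-Eb2 were detected on no array.

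Cd74 encodes the invariant chain. Its brightest probe, ILMN_1221817, measured 7.84, 5.39 and 8.36 in NHD13 cells, against 9.19, 6.16 and 10.59 in wild type cells. The array numbered 2 was the dimmest and the array numbered 3 the brightest in both genotypes, and the groups overlapped. The difference was -1.45 ± 1.23 (SE, adjusted p = 0.76, and 0.15 with the block), with a 95% interval of -4.36 to 1.46. The pairs of arrays numbered 1, 2 and 3 differed by -1.34, -0.77 and -2.23. Before normalization, wild type replicate 3 read 1493 ± 91.5 (intensity, SE over 34 beads) and wild type replicate 2 read 191.0 ± 9.74 (32 beads). Leaving out wild type replicate 2 gave -2.69, leaving out NHD13 replicate 3 gave -2.03, leaving out wild type replicate 3 gave -0.47 and leaving out NHD13 replicate 2 gave -0.54.

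A second Cd74 probe, ILMN_3089584, measured 7.82, 5.53 and 8.57 in NHD13 cells, against 8.66, 5.68 and 10.04 in wild type cells. Its difference was -0.83 ± 1.21 (SE, adjusted p = 0.86), and it was 0.06 when NHD13 replicate 2 was dropped and 0.13 when wild type replicate 3 was dropped. The dimmest probe, ILMN_1247832, was detected on 0 of 3 NHD13 arrays and on 1 of 3 wild type arrays, replicate 3, and was not tested. The 2 tested probes of Cd74 followed each other over the 6 arrays at r = 0.98.

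The DM genes encode the peptide exchange protein of endosomes. H2-DMa measured 10.26, 10.16 and 11.97 in NHD13 cells, against 11.75, 11.33 and 11.70 in wild type cells (probe ILMN_2866856). NHD13 replicates 1 and 2 lay more than 1 log2 unit under every wild type array, and NHD13 replicate 3 was the highest of all 6. The difference was -0.80 ± 0.48 (SE, adjusted p = 0.70), and the pairs numbered 1, 2 and 3 differed by -1.49, -1.17 and 0.26. Without NHD13 replicate 3 the difference was -1.38 and passed over genes (adjusted p = 0.044), as did 81 of 9000 genes. Over probes it did not pass (adjusted p = 0.055, and 0.064 for the gene's other probe). Without NHD13 replicate 1 it was -0.53 and without NHD13 replicate 2 it was -0.48. A second probe, ILMN_2777769, gave -0.79 ± 0.44 and correlated with the first at 0.998 over the 6 arrays.

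H2-DMb1, the beta chain of DM, measured 7.43, 7.42 and 8.89 in NHD13 cells, against 9.19, 8.46 and 9.21 in wild type cells. NHD13 replicate 3 lay above wild type replicate 2, so the groups overlapped. The difference was -1.04 ± 0.44 (SE, adjusted p = 0.64, and 0.22 with the block), or 2.06-fold lower, and all 3 numbered pairs were below 0, at -1.76, -1.04 and -0.33. With arrays weighted by their estimated variability the difference was -1.51 and passed (adjusted p = 0.035), as did 408 of 9000 genes. NHD13 replicate 1 then weighed 5.02, against 0.35 for NHD13 replicate 3. H2-DMb2, a close copy in the same stretch of chromosome whose signal a probe may share, measured -1.12 ± 0.56 (SE, adjusted p = 0.68). H2-DMa and H2-DMb1 followed each other over the 6 arrays, at r = 0.96, more closely than H2-DMa followed Cd74, at 0.64.

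The DO genes, whose protein restrains DM, are known mainly from B cells. H2-Oa, the alpha chain, measured 7.76, 7.75 and 8.39 in NHD13 cells, against 8.23, 7.93 and 8.33 in wild type cells (ILMN_2773037). The groups overlapped, with a difference of -0.20 ± 0.23 (SE, adjusted p = 0.80) and a 95% interval of -0.74 to 0.34. A dimmer probe, ILMN_2867076, gave -0.09 ± 0.21, and 0.091 without wild type replicate 3.

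H2-Ob, the beta chain of DO, was the tested member with a positive difference. It measured 7.96, 7.86 and 8.21 in NHD13 cells, against 7.51, 7.31 and 7.81 in wild type cells. All 3 NHD13 values lay above every wild type value, an order shared by 6.71% of the genes tested. The numbered pairs differed by 0.45, 0.55 and 0.40. The difference was 0.47 ± 0.19 (SE, n = 3 against 3), or 1.38-fold higher, with a 95% interval of 0.02 to 0.92, and did not pass (adjusted p = 0.63, and 0.22 with the block). Its values lay between 0.35 and 0.60 with any 1 array left out. Its probe rested on 17 to 41 beads.

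Ciita, the coactivator that switches these genes on, was at background. The probe ILMN_2678211 measured 4.89, 4.91 and 4.77 in NHD13 cells, against 4.84, 4.44 and 5.61 in wild type cells, and was detected on wild type replicate 3 alone. The other probe, ILMN_2568407, was detected on no array. No difference in Ciita was detectable at this signal, and neither probe was tested.

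**Figure D3:**
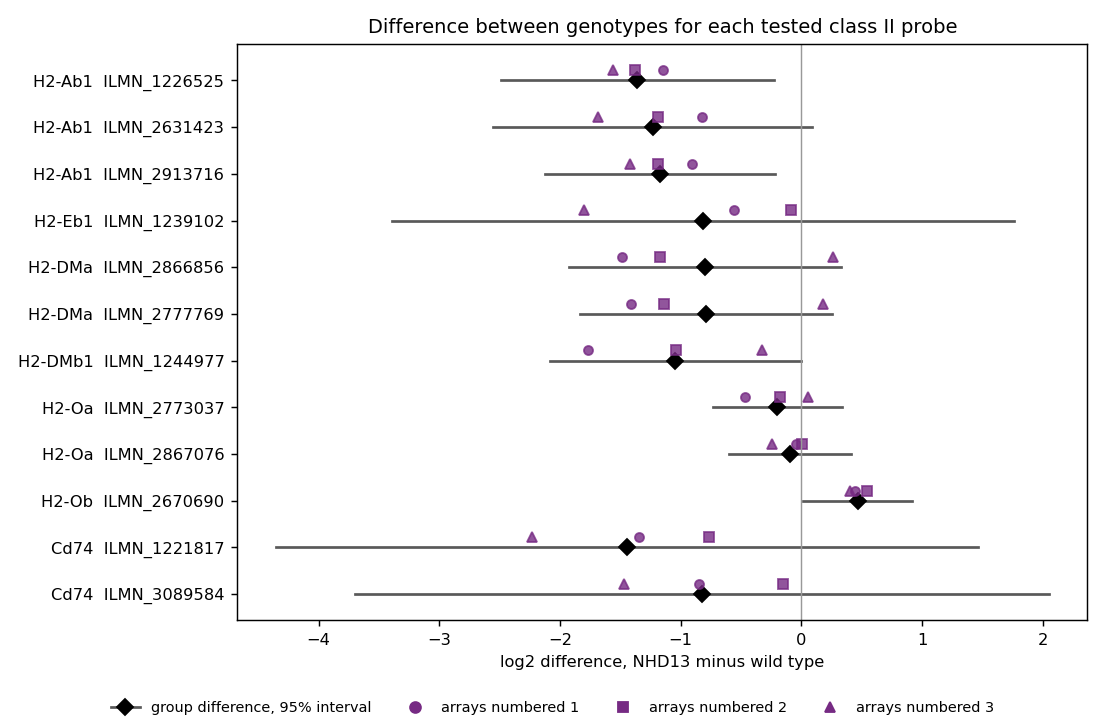
Log2 difference between genotypes, NHD13 minus wild type, for the 12 tested class II probes. Diamonds and lines give the group difference with its 95% interval (n = 3 against 3), and purple markers the difference within the arrays of one number. The 3 probes of H2-Ab1 cluster between -1.36 and -1.17, while H2-Eb1 and Cd74 have wide intervals.

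How the members varied together is given as a description over 6 arrays, which share their depth and pools. The mean profile of H2-Ab1, H2-Eb1 and Cd74, each centred on its own mean, was -0.25, -1.90 and 0.35 in NHD13 replicates 1 to 3, against 0.76, -1.16 and 2.21 in wild type replicates 1 to 3. The array numbered 2 was lowest and the array numbered 3 highest in both genotypes. H2-Eb1 and Cd74 followed each other at r = 0.98. By its brightest probe H2-Ab1 followed H2-DMb1 at 0.88, Cd74 at 0.84 and H2-Eb1 at 0.79, and by ILMN_2913716 at 0.85, 0.75 and 0.71. By ILMN_2631423 the order was the reverse, with H2-DMb1 at 0.82, Cd74 at 0.92 and H2-Eb1 at 0.88. Which of these genes H2-Ab1 lay closest to thus depended on the probe. The brighter H2-Oa probe followed H2-DMa at 0.94 and the dimmer one H2-Eb1 at 0.91. H2-Ob followed the profile at 0.15 and H2-Ab1 at -0.20. Of the 7 genes, 4 were below 0 in each numbered pair, H2-Ab1, H2-Eb1, Cd74 and H2-DMb1, against 18.6% of all tested genes, and 1 was above 0 in each.

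Among 8741 other tested genes, predicted symbols left out, the 5 whose values followed the profile most closely were Scmh1 (r = 0.99), Mbd6 (0.99), Actr3 (0.98), Hmgxb4 (0.97) and Pxn (0.97). As the highest of 8741 correlations over only 6 arrays, these values of r are high partly through the choice itself. Mbd6 was detected on 4 of the 6 arrays. Scmh1 encodes a Polycomb group protein, Actr3 a subunit of the actin-nucleating Arp2/3 complex and Pxn the focal adhesion protein paxillin. The differences of these 5 genes between genotypes were smaller, from -0.43 for Mbd6 to -0.16 for Hmgxb4, and none passed.

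In the RefSeq order of GRCm38.p6 the 7 H2 members lie on chromosome 17 in the order H2-Oa, H2-DMa, H2-DMb1, H2-Ob, H2-Ab1, H2-Aa and H2-Eb1, while Ciita lies on chromosome 16 and Cd74 on chromosome 18. The stretch from H2-Oa to H2-Eb1 holds 13 protein-coding genes, and 6 that are not members were tested. Of these, 5 lay below 0, as did 4129 of all 9000 tested genes, and none passed, with a median of -0.40. Psmb9 and Psmb8, subunits of the immunoproteasome, measured -0.55 each, Tap1 and Tap2, the peptide transporter of class I, -0.25 and -0.26, and Brd2, a bromodomain protein at the H2-Oa end, 0.01. The nearest protein-coding neighbours of H2-Ob are Tap2 and H2-Ab1, both with differences below 0.

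Other genes of the pathway, class I and costimulatory genes, and markers of cell types and of the sort were read from 11 lists. Of these lists 75 different genes were tested. None passed (lowest adjusted p = 0.49), and 5 of the 75 had an unadjusted p under 0.05, a share below the 7.67% of all tested genes. With the block none passed either (lowest adjusted p = 0.081). Beside the counts below 0 of each list, 4129 of all 9000 tested genes lay below 0. Genes of a list were read on the same pools, so their signs are not independent.

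Among genes that process antigen and the invariant chain, 8 of 12 were tested, 6 below 0, with a median of -0.22. Ctsh, a cathepsin, measured 8.76, 5.07 and 10.64 in NHD13 cells, against 10.80, 8.61 and 11.26 in wild type cells, a difference of -2.07 ± 1.40 (SE, adjusted p = 0.72). Ctsh was not detected on NHD13 replicate 2, so its difference rests partly on a value under the detection floor. The cathepsin inhibitor Cst3 measured -0.50 and the reductase Ifi30 -0.29. Ctss, the protease that trims the invariant chain, averaged 5.68 in NHD13 cells and 5.69 in wild type cells, near the detection floor.

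Of 11 factors that bind or serve class II promoters, 9 were tested, 2 of them below 0, with a median of 0.13. Creb1, of the X box, measured 6.49, 6.24 and 6.28 in NHD13 cells, against 6.23, 5.70 and 5.67 in wild type cells, a difference of 0.47 ± 0.20 (SE, adjusted p = 0.64). The groups did not overlap, with NHD13 higher, as for 6.71% of all tested genes. The RFX subunit Rfxank measured -0.36 and the coactivator Crebbp -0.24, and Rfx5 was detected on no array. Of 15 genes tied to Ciita itself, 11 were tested, 6 below 0, with a median of -0.12. Irf8, a regulator of dendritic and monocyte fate, measured 8.06, 5.14 and 9.46 in NHD13 cells, against 10.001, 8.63 and 9.92 in wild type cells (difference -1.96 ± 1.04, SE, adjusted p = 0.69). Irf8 too was not detected on NHD13 replicate 2. Irf1 measured -0.82 and Tcf4, a factor of plasmacytoid dendritic cells, 0.43 (adjusted p = 0.57). The genotypes did not overlap for Tcf4 either, with NHD13 higher (6.71% of all tested genes).

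Class I presentation genes, which carry cytosolic peptides, were all below 0, 17 of 17 tested, with a median of -0.27 and none passing. The difference nearest 0 was -0.003. Of the 17, 1 had all NHD13 values under all wild type values, against 5.83% of all tested genes. Psmb9 measured 10.72, 10.56 and 11.25 in NHD13 cells, against 11.58, 11.23 and 11.38 in wild type cells (difference -0.55 ± 0.22, SE, adjusted p = 0.63). H2-T23, a non-classical class I gene, measured -0.43. Of 9 costimulatory genes 3 were tested, with Icosl at 0.28, Cd274 at 0.25 and the adhesion ligand Icam1 at -0.88. NHD13 replicate 2 did not detect Icam1.

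**Figure D4:**
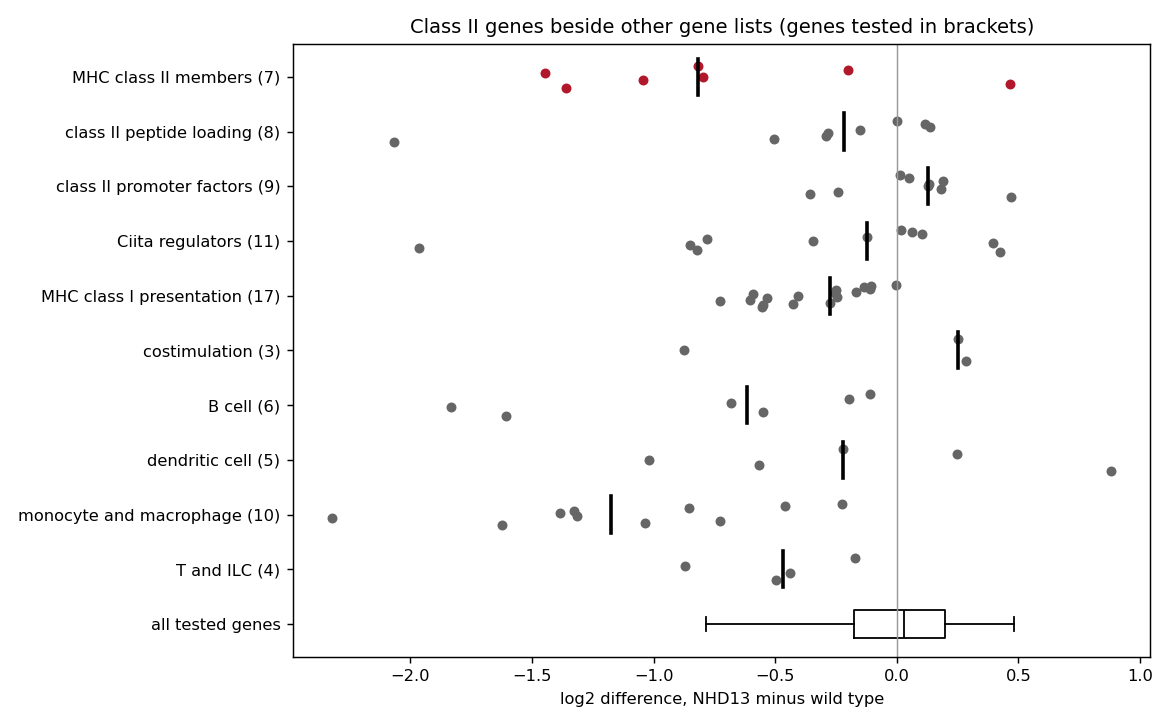
Log2 difference between genotypes, NHD13 minus wild type, for each tested gene of 10 lists, with the list's median as a black bar. The box at the bottom gives the quartiles of all 9000 tested genes, and its whiskers the range from percentile 5 to percentile 95. Class II members (red) have a median of -0.82, monocyte and macrophage genes -1.17 and class I genes -0.27.

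Markers of cells that carry class II were read on the same arrays. All 10 tested monocyte and macrophage genes, of 17 listed, lay below 0, with a median of -1.17 and none passing. Cx3cr1, a chemokine receptor, measured 6.66, 5.16 and 7.28 in NHD13 cells, against 8.18, 7.48 and 8.30 in wild type cells (difference -1.62 ± 0.53, SE, adjusted p = 0.49). The genotypes did not overlap for Cx3cr1, with NHD13 lower, as for 5.83% of all tested genes. NHD13 replicate 2 did not detect Cx3cr1, so its difference rests partly on a value under the detection floor. Csf1r measured -1.04, and Ccr2, detected on 1 of 3 NHD13 arrays and 2 of 3 wild type arrays, measured -0.73. The mean of the list, relative to the 6 arrays, was -0.35, -2.12 and 0.78 in NHD13 replicates 1 to 3 and 0.93, -0.38 and 1.14 in wild type replicates 1 to 3. The defining markers Fcgr1 and Itgam were detected on no array.

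Of 15 B cell genes 6 were tested, all below 0, with a median of -0.62. Vpreb1 and Ebf1 were detected on 1 of 3 NHD13 arrays and 3 of 3 wild type arrays, and Igll1 on 1 of 3 and 2 of 3. Their NHD13 values were thus mostly not told apart from background. Vpreb1, of the surrogate light chain of B precursors, measured 5.18, 4.93 and 5.78 in NHD13 cells, against 6.26, 5.94 and 8.51 in wild type cells (difference -1.61 ± 0.66, SE, adjusted p = 0.63). Its groups did not overlap, with NHD13 lower (5.83% of all tested genes). Its partner Igll1 measured 4.87, 4.86 and 5.76 in NHD13 cells, against 6.31, 5.02 and 9.66 in wild type cells, and Ebf1 measured -0.55. Wild type replicate 3 was thus the highest array for both surrogate light chain genes, as it was for Cd74, H2-Eb1, H2-Aa and H2-Ab1. The mean of the monocyte and macrophage list was also highest on that array, at 1.14, so this was not particular to B cell genes. The B cell list mean was -0.60, -0.69 and 0.05 in NHD13 replicates 1 to 3 and 0.22, -0.34 and 1.37 in wild type replicates 1 to 3. Pax5, Cd22, Cr2, Fcer2a and Blnk were detected on no array.

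Of 18 dendritic cell genes 5 were tested, with a median of -0.22, and 10 were detected on no array, among them Itgax, Flt3 and Cd209a. Zbtb46 measured 0.88, Bst2 -0.57 and Sirpa, which other myeloid cells share, -1.02. Of 13 T and innate lymphoid genes 4 were tested, with a median of -0.47, with Il7r at -0.50, Cd8b1 at -0.44 and Nkg7 at -0.87, and Cd3d, Cd4, Cd8a and Cd5 were detected on no array. Il7r was detected on 3 of 3 wild type arrays and on 0 of 3 NHD13 arrays, so it entered the test through wild type alone. Its -0.50, which also enters the median, therefore rests on NHD13 values under the detection floor. Set against that floor, Il7r was at least 1.29-fold lower in NHD13 cells. The part of the monocyte, B cell and other marker lists in the class II values was not tested.

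**Figure D5:**
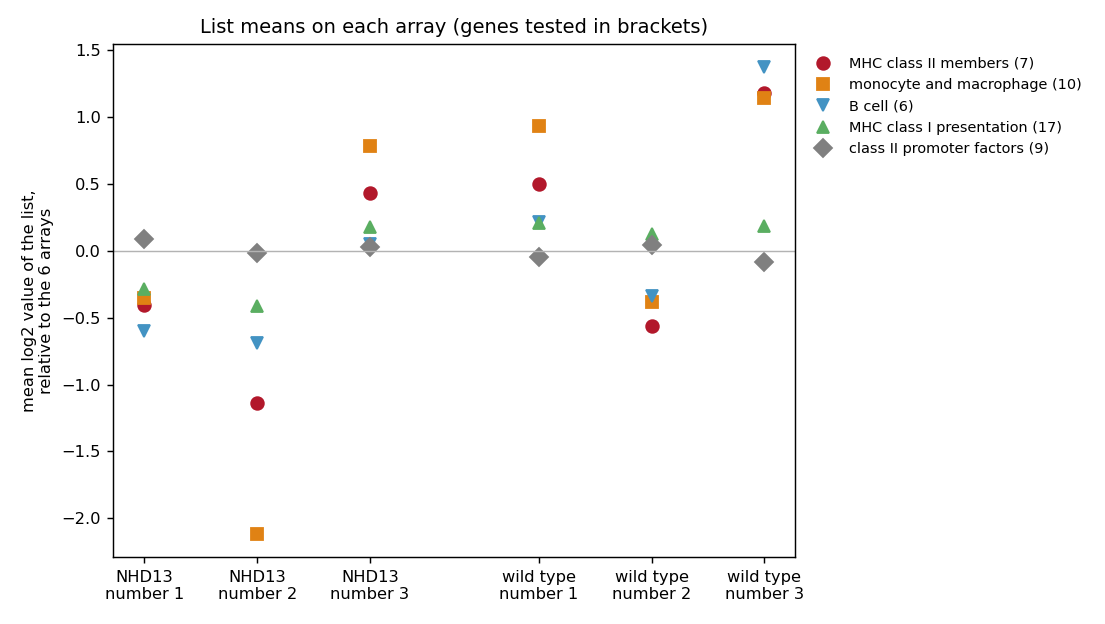
Mean log2 value of 5 gene lists on each array, each gene centred on its mean over the 6 arrays, with NHD13 arrays left of wild type arrays. Class II members (red circles), monocyte and macrophage genes (orange squares) and B cell genes (blue triangles) are lowest on NHD13 replicate 2 and highest on wild type replicate 3. Factors of the class II promoter (grey diamonds) stay between -0.09 and 0.09.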

How the data were processed

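Per the file headers, the deposited table holds for every probe an average intensity, neither background-subtracted nor normalized, with a bead count, a detection p-value and the standard error between beads. Intensities processed by the authors were deposited too and served as an alternative. The scanner software is not given in the sources used here. Values were corrected and quantile-normalized by neqc (limma 3.58.1, R 4.3.3; normexp, offset 16), which here estimated its negative controls by way of the detection p-values, and put on the log2 scale. Probes detected (p-value below 0.05) by 3 or more of the 6 arrays were tested (16518) by lmFit and eBayes, two-sided, and Benjamini-Hochberg adjustment ran over these probes or over 9000 genes, each by its probe of highest mean. Symbols are the platform annotation's. The script was tested on simulated data. For a bound ("at least"), the brighter group's mean was set against the dimmer group's detection floor. Levels of different probes were not compared. The number of arrays limits the precision, and p-values measure the spread between pools.

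Nothing in the labels says what a replicate number shares. Arrays of number 1, 2 and 3 deviated from their genotype's mean with correlations of 0.19, 0.67 and 0.54, each over 0.1, so the numbers were taken as pairs, although NHD13 replicate 3 and wild type replicate 1 reached 0.24, and a fit blocked by number was added. Members, lists and rules were chosen with earlier results of these data known. Named are all members, the 3 genes of smallest p in each other list, the 5 genes most like the class II profile, and Kit. Undetected markers, genes of the chromosome stretch and Ctss were named after their values were seen. The alternatives changed the background correction (none, or an offset of 50), the scaling (by the median), the source (the authors' values), the detection filter (all 6 arrays, or none), the variance model (trended and robust), the array weights, the summary of a gene's probes (their mean), the block, and the arrays (each left out, or both numbered 2). Leaving an array out of the H2-Aa bound was chosen after seeing the data.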

Additional observations from a re-analysis of the deposited data

How the results depend on the processing

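The median difference of the tested member genes stayed below 0 under all 17 alternatives, between -1.38 and -0.47, as did H2-Ab1 (-1.71 to -0.91) and H2-DMb1 (-1.53 to -0.73), and H2-Ob stayed above 0 (0.29 to 0.60). Not all alternatives could change a sign. The trended variance and the block alter only the error of a difference. The detection filters left the differences of H2-Ab1, H2-DMb1 and H2-Ob as they were. The number of member genes called, 0 in the main fit, was 1 with the replicate block (H2-Ab1, adjusted p = 0.037), 1 with array weights (H2-DMb1, -1.51, adjusted p = 0.035) and 0 to 1 with each array left out (H2-DMa without NHD13 replicate 3, over genes but not over probes). The block changed no other member's call. Array weights were 5.02 for NHD13 replicate 1 and 0.35 for NHD13 replicate 3. The sign turned for H2-Eb1 (-1.91 to 0.17 with each array left out, 0.17 without wild type replicate 3), for the Cd74 probe ILMN_3089584 (-2.05 to 0.13; 0.06 and 0.13 when NHD13 replicate 2 or wild type replicate 3 was dropped) and for the H2-Oa probe ILMN_2867076 (-0.22 to 0.091, 0.091 without wild type replicate 3). Over all genes, 61 passed in the main fit, 37 without background correction, 8 with detection on all 6 arrays (7499 genes), 408 with array weights, 18 without both arrays numbered 2, and 12 to 81 with each array left out. Over probes, 67 passed, and 36, 11, 579, 21 and 1 to 88 under the same alternatives. The cause was not tested, apart from fewer arrays or probes. Under the 4 other scalings and offsets, all tested monocyte, B cell and class I genes stayed below 0, and median scaling put 8 rather than 6 Ciita regulators, 7 rather than 6 peptide loading genes and 3 rather than 2 promoter factors below 0. H2-Aa and Ciita are limited by signal near background.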
